A study of Mus musculus with 45 samples.

Results

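The comparison described here is between the hippocampus of mice with and without Csf1r-cre on a floxed Apoe background, at 4 months and without amyloid. It set 6 samples with the Cre against 8 without it, chosen by the sample titles, 14 of the 45 samples in the series. All 14 were from the C57BL/6 strain at 4 months of age, and all 14 carried Apoe(fl/fl), so the controls were floxed too. None of the 14 carried 5xFAD, a set of human amyloid precursor and presenilin transgenes. In the first group Csf1r-cre, in which the promoter of the CSF1 receptor drives Cre recombinase in microglia and other myeloid cells, was meant to delete Apoe there. The hippocampus was dissected and its RNA extracted whole, so astrocytes, neurons and vessels are in every library. The rest of the series was older or carried 5xFAD.

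Apoe encodes apolipoprotein E, a main carrier of cholesterol and phospholipid between cells of the brain. Astrocytes make most of it in the healthy brain, and microglia raise it strongly around amyloid or damage, where it acts together with the lipid receptor Trem2. With Cre limited to myeloid cells the astrocyte transcript is left in place, and a transcript that lacks only its floxed part would still be counted.

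Expression was deposited as TPM, transcript abundance scaled for gene length and library total. It was tested with limma on log2(TPM + 0.5), a scale that understates the change of low genes. Where values are set against each other, the mean ± SD of the 6 Csf1r-cre samples comes first and that of the 8 controls second, and a log2 fold change is given ± SE. Library read totals are not known; a single read over 1 kb of transcript came to 0.0631 to 0.0902 TPM. Pairs of the 14 libraries correlated at 0.945 to 0.985. Gm23935, an RNA gene, took 0.427% to 28.8% of all TPM in the controls and 4.36% to 24.1% with Csf1r-cre. The Y-linked Ddx3y was above 5 TPM in 5 of 8 control and 3 of 6 Csf1r-cre libraries, and the labels give no sex. They also do not say that each sample came from a separate mouse, so the p-values reflect only how much samples vary. For limma that spread was pooled over all 45 samples of the series, not taken from these 14 alone. In whole tissue, fewer cells of a type and less RNA per cell cannot be told apart.

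Apoe itself (ENSMUSG00000002985, chr7:19696109-19699188 in mm10) was nearly equal in both groups. The 8 controls ran from 1979 over 3501 to 4027 TPM (lowest, median, highest), and the 6 Csf1r-cre samples from 2392 over 3149 to 5434 TPM. The groups overlapped widely, and the highest of the 14 libraries was Csf1r-cre replicate 4. The means were 3328 ± 1093 TPM (SD) in the 6 Csf1r-cre samples and 3327 ± 729.7 TPM (SD) in the 8 controls. The difference in mean log2(TPM + 0.5) was -0.018 (exact two-sided permutation p = 0.936 over 3003 arrangements, with a smallest possible p of 0.000333). Its 95% interval in limma ran from -0.40 to 0.37. The sign changed with the scaling, to 0.14 with median-of-ratios size factors and 0.075 without Gm23935. Since astrocytes also express the gene, the level in whole hippocampus is no check of the genotype labels.

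The neighbours of Apoe on chromosome 7 did not pass the test either. Of the 10 genes listed for the locus 8 were measured, with a median log2 fold change of 0.0093 (0.098 with size factors), 0 called by limma and 0 at an unadjusted p under 0.05. Apoc1, an apolipoprotein of the same cluster that macrophages express, was 10.9 ± 5.72 TPM (SD) in the 6 Csf1r-cre samples and 7.70 ± 2.56 TPM (SD) in the 8 controls, a log2 fold change of 0.38 ± 0.31 (SE). Tomm40, which encodes a pore of the mitochondrial outer membrane, was 58.6 ± 7.92 TPM against 64.9 ± 12.0 TPM (-0.13 ± 0.17). Csf1r, whose promoter drives the Cre, ran from 13 over 25.1 to 34.5 TPM with Csf1r-cre and from 16.3 over 29.8 to 40.9 TPM in the controls. The groups overlapped, and its log2 fold change was -0.30 ± 0.30 (SE, limma adjusted p = 0.995).

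Across all genes 9 of 18659 passed the test at an adjusted p under 0.05, or 0.0482%. Of these 8 were higher with Csf1r-cre (0.0429% of the genes tested) and 1 was lower (0.00536%). An unadjusted p under 0.05 was reached by 363 genes (1.95%), 105 higher (0.563%) and 258 lower (1.38%). None of the 9 is in the lists of microglial or lipid transport genes. They are 5 processed pseudogenes, which are intronless copies of a spliced messenger RNA, the Hmga1-related gene Hmga1b, and the protein-coding genes Atp6v0c, Prss41 and Rnf151. Of the 8 higher genes, Rps2-ps13, Prss41 and Rnf151 passed the filter, 0.5 TPM in 3 of all 45 samples, only through Csf1r-cre libraries. Genes admitted in that way could hardly be called lower.

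Atp6v0c and its copy passed the test in opposite directions, each with no overlap between the groups. Atp6v0c (ENSMUSG00000024121, chr17:24163866-24169702, minus strand) encodes the ring-forming c subunit of the vacuolar ATPase, the pump that acidifies lysosomes and synaptic vesicles. The controls ran from 306 over 378 to 572 TPM and the Csf1r-cre samples from 168 over 189 to 226 TPM. Every Csf1r-cre sample lay under every control, and the log2 fold change was -1.01 ± 0.13 (SE, limma adjusted p = 3.38e-06). Atp6v0c-ps2 (ENSMUSG00000080242, chr6:37806086-37806550), a processed pseudogene, ran from 11.3 over 12.6 to 22.4 TPM in the controls and from 396 over 460.0 to 482 TPM with Csf1r-cre. All 6 Csf1r-cre samples lay far above all 8 controls (log2 fold change 5.01 ± 0.22, SE, limma adjusted p = 1.62e-20).

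The pseudogene differs from the coding sequence of Atp6v0c at 1 of 465 bases, so reads of one can hardly be told from reads of the other and both values are uncertain. The stretch around that base is shown because it is all that separates the pair over the coding sequence. It runs from coding base 61 to 160, counted from the A of the start codon, with the differing base in capitals, and comes from the GENCODE M21 transcripts on GRCm38 (mm10). In Atp6v0c it spans exons 1 and 2 of 3 within chr17:24164802-24169224 on the minus strand; in the copy it is chr6:37806146-37806245 on the plus strand.
Atp6v0c: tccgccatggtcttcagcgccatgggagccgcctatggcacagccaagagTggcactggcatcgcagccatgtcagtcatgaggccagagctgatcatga
Atp6v0c-ps2: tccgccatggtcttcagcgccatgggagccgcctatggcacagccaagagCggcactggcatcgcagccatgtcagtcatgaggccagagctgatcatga
The difference is T111C, in codon 37.

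**Figure D1:**
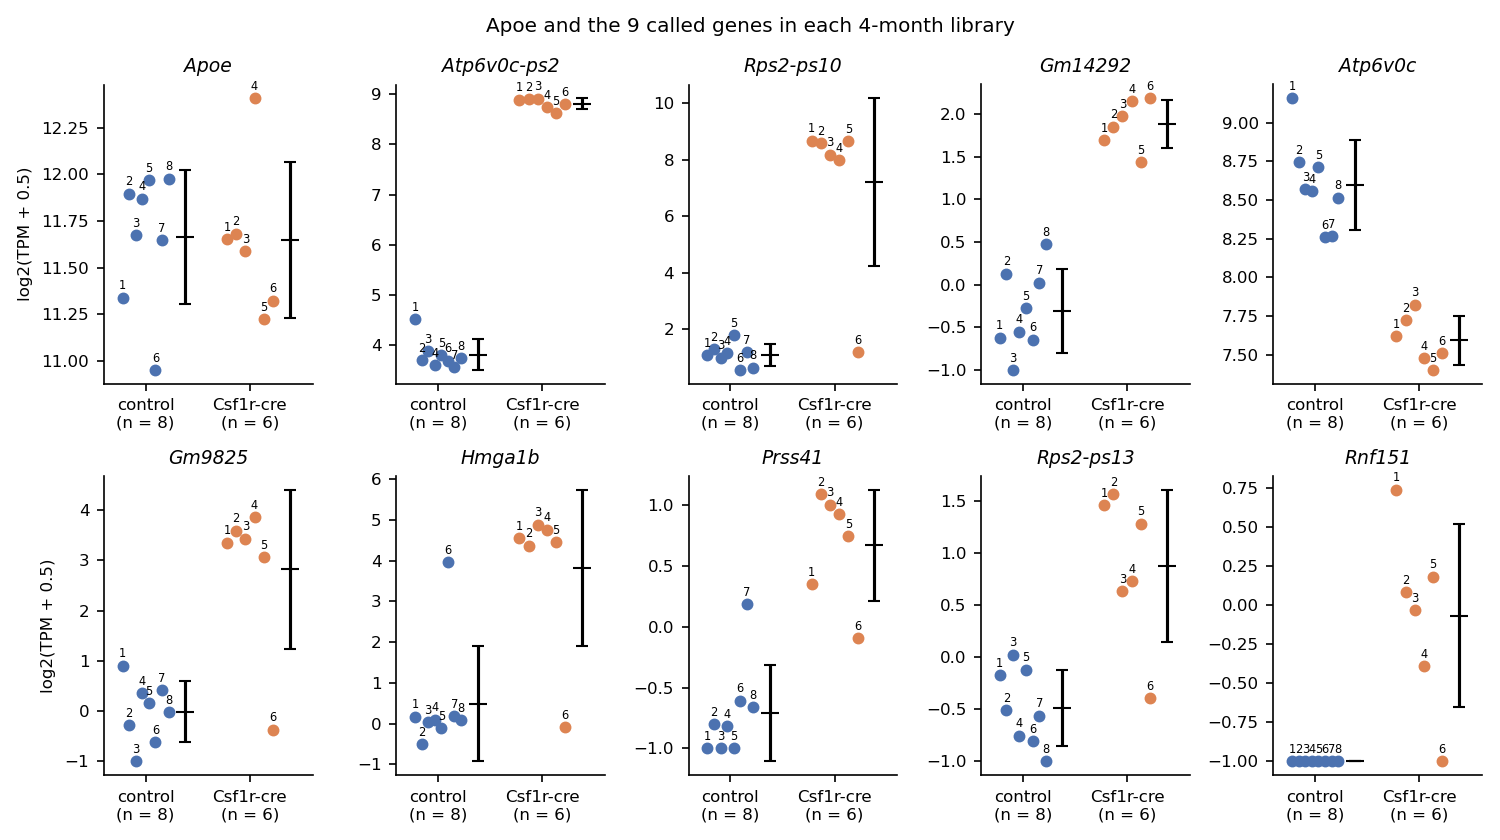
Levels of Apoe and of the 9 called genes as log2(TPM + 0.5) in each library, for 8 control and 6 Csf1r-cre samples, numbered by replicate; black bars give the mean and SD of each group. The groups are apart for Atp6v0c, Atp6v0c-ps2 and Gm14292, overlap for Apoe, and in the other 6 genes Csf1r-cre replicate 6 lies within the range of the controls.

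Rps2 encodes a protein of the small ribosomal subunit, and 2 of its 13 tested copies were called, both higher. The other 11 had log2 fold changes from -0.33 to 0.69, 3 of them below 0, and 2 of the 11 were higher at an unadjusted p under 0.05. Rps2-ps10 (ENSMUSG00000091957), on chromosome 18, ran from 0.971 over 1.67 to 2.98 TPM in the controls. Csf1r-cre replicates 1 to 5 lay between 251 and 409 TPM, and replicate 6 was at 1.76 TPM, inside the control range. The log2 fold change over all 6 was 6.12 ± 0.60 (SE, limma adjusted p = 7.45e-09, and 0.0496 with only the 2 groups fitted). In mm10 this pseudogene lies inside Pde6a and begins 126.859 kb beyond the end of Csf1r. Rps2-ps13, another copy on the X chromosome, was 1.52 ± 0.839 TPM (SD) in the 6 Csf1r-cre samples and 0.234 ± 0.186 TPM (SD) in the 8 controls, a log2 fold change of 1.37 ± 0.27 (SE). Its limma adjusted p was 0.0220, 0.181 with the replicate number as a block, and 0.516 with only the 2 groups fitted.

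Hmga1b, on chromosome 11, is near-identical to Hmga1, which encodes a protein that bends DNA. It was between 20.1 and 28.9 TPM in Csf1r-cre replicates 1 to 5 and at 0.442 TPM in replicate 6. Control replicate 6 was at 15 TPM and the other controls at no more than 0.630 TPM, so each group had 1 sample at or near the level of the other. The log2 fold change was 3.33 ± 0.54 (SE, limma adjusted p = 0.000745, and 0.925 with only the 2 groups fitted).

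Gm14292, on chromosome 2, is a copy of Wtap, which encodes a subunit of the complex that methylates adenosine in RNA. It ran from 0 over 0.254 to 0.893 TPM in the controls and from 2.21 over 3.28 to 4.06 TPM with Csf1r-cre, with no overlap (log2 fold change 2.19 ± 0.26, SE, limma adjusted p = 1.23e-06). Only 2 of 18659 genes (0.0107%) had every Csf1r-cre sample above every control, this one and Atp6v0c-ps2; 8 (0.0429%) had every Csf1r-cre sample below, Atp6v0c among them, which makes 0.0536% in all.

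Gm9825 (ENSMUSG00000096403, chr6:7982541-7983383) is a copy of Rnps1, which encodes an RNA-binding protein of the splicing machinery. It was 7.86 to 14.1 TPM in Csf1r-cre replicates 1 to 5, 0.274 TPM in replicate 6 and at most 1.38 TPM in the controls. The log2 fold change was 2.83 ± 0.38 (SE, limma adjusted p = 1.30e-05, and 0.420 with only the 2 groups fitted). The copy differs from the Rnps1 coding sequence at 5 of 843 compared bases, and the stretch from coding base 164 to 263 is shown because it holds 2 of them, in capitals. In Rnps1 it is chr17:24420211-24420310, plus strand, in exon 3 of 7; in the copy it is chr6:7983124-7983223, minus strand.
Rnps1: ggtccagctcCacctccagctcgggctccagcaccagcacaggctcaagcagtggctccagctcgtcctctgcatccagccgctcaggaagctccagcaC
Gm9825: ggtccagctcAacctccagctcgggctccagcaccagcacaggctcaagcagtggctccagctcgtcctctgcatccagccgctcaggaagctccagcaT
Counted from the A of the start codon, the 5 differences are C174A, C263T, T492C, T513C and C687T.

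The other called genes are protein-coding and lie on chromosome 17. Prss41, a serine protease gene (chr17:23836785-23844172, overlapping Prss32), was 1.16 ± 0.463 TPM (SD) in the 6 Csf1r-cre samples and 0.134 ± 0.213 TPM (SD) in the 8 controls, a log2 fold change of 1.39 ± 0.23 (SE, limma adjusted p = 0.00136). Control replicate 7, at 0.639 TPM, lay above Csf1r-cre replicate 6, at 0.439 TPM, and the other 5 Csf1r-cre samples lay above every control. Rnf151, a ring finger gene (chr17:24715839-24718057), was listed at 0 in all 8 controls and in Csf1r-cre replicate 6, and lay between 0.264 and 1.17 TPM in the other 5. Its limma adjusted p was 0.0220, and 0.0848 with the replicate number as a block. It ends 59 bases before the start of Rps2. With only the 2 groups fitted, limma's adjusted p was 0.0610 for Prss41 and 0.529 for Rnf151. Both genes passed the filter only through Csf1r-cre libraries, so their direction was largely fixed by it.

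The called copies had their sequence matches on chromosome 17. Of 1081 tested pseudogenes, processed or unprocessed, 815 matched a protein-coding transcript at 95% identity or more over at least 80% of their length. The match lay on chromosome 17 for 52, of which 5 were called, all higher, and elsewhere for 763, of which 0 were called by limma. At an unadjusted p under 0.05 there were 8 higher and 0 lower of 52, against 11 higher and 15 lower of 763. The filter also admitted copies only through Csf1r-cre libraries, Rps2-ps13 among them, and such copies could hardly come out lower. The directions in these counts are therefore partly set by the filter. Hmga1b is annotated as protein-coding and is not in these counts. Among all 877 tested genes of chromosome 17, 3 were called and 40 had an unadjusted p under 0.05, or 4.56%, of which 28 were lower. On the other chromosomes it was 323 of 17782 genes, or 1.82%.

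Of the genes that the called copies match, named here for that match after their values were seen, only Atp6v0c passed. Rnps1 was 42.5 ± 4.31 TPM (SD) in the 6 Csf1r-cre samples and 60.8 ± 9.96 TPM (SD) in the 8 controls, a log2 fold change of -0.50 ± 0.14 (SE, limma adjusted p = 0.995). Rps2 was 1059 ± 220.2 TPM against 1412 ± 325 TPM (-0.41 ± 0.19). Hmga1 was 52.9 ± 12.3 TPM against 69.1 ± 18.0 TPM (-0.36 ± 0.24), and Wtap was 30.7 ± 6.30 TPM against 36.5 ± 8.25 TPM (-0.24 ± 0.17). Each was lower on average in the Csf1r-cre samples without passing. So were most genes: 74.5% of all tested lay below 0, with a median log2 fold change of -0.12. How the authors' counting divided reads between such a gene and its copies was not tested, so the values of each pair are uncertain.

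**Figure D2:**
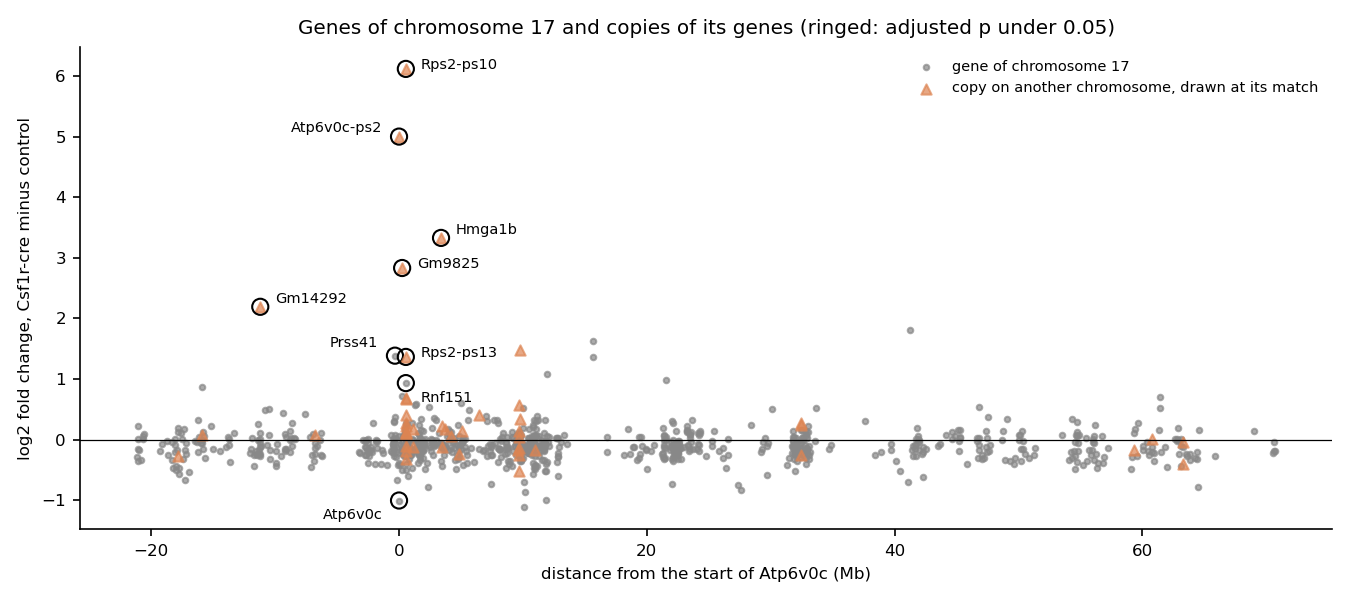
Log2 fold change, Csf1r-cre minus control, against distance in Mb from the start of Atp6v0c, for tested genes of chromosome 17 (points) and for copies on other chromosomes drawn at the position of their match (triangles); rings mark an adjusted p under 0.05, and Rnf151, listed at 0 in all 8 controls, has a fitted value only. The 9 ringed genes lie between -11.2 Mb, where the match of Gm14292 is, and 3.39 Mb, where that of Hmga1b is.

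Levels by library were compared for the 12 of 56 copies with a match on chromosome 17 that had an unadjusted p under 0.05, so they were chosen by their values in these samples. Among these 12, Csf1r-cre replicate 6 had the levels of its group at some copies and those of the controls at others. At Gm14292, whose match starts 11.2 Mb before Atp6v0c in chromosome coordinates, and at Atp6v0c-ps2 it was with its group, at 4.06 and 445 TPM. At the 9 of these copies whose match starts 0.25 Mb or more beyond Atp6v0c it was no higher than the highest control, from Gm9825 and the Rps2 copies to AC154457.3, whose match Mrps10 starts 23.21 Mb beyond; at H2-T10, with 0.176 TPM, it lay below every control. Atp6v0c itself was at 182 TPM in this library, within its group.

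Control replicates 6 and 7 showed the reverse at the far end. Control replicate 6 was at 15 TPM of Hmga1b, 10.2 TPM of Gm11361, 2.01 TPM of H2-T10 and 1.68 TPM of AC154457.3, the copies whose matches start 3.39 Mb or more beyond. Control replicate 7 was at 11.4, 2.33 and 2.76 TPM of the last 3 of these but at 0.630 TPM of Hmga1b. The other 6 controls reached at most 4.95, 0.446 and 0.158 TPM of those 3. Without Csf1r-cre replicate 6, Rps2-ps10 was 348 ± 72.7 TPM (SD, n = 5), Gm9825 was 10.7 ± 2.30 TPM, and 13 genes were called in place of 9.

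**Figure D3:**
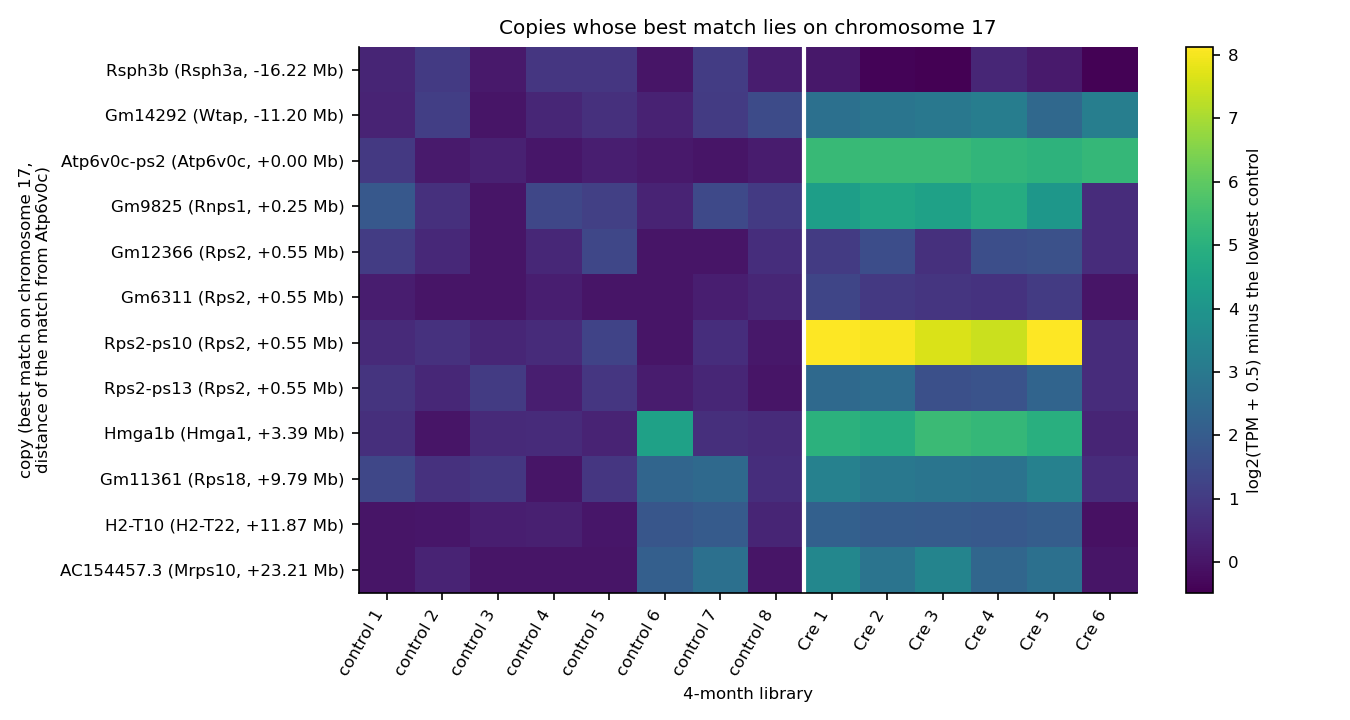
Level of the 12 copies with an unadjusted p under 0.05, as log2(TPM + 0.5) above the lowest control, in the 8 control and 6 Csf1r-cre libraries, ordered by the distance of the match from Atp6v0c. Csf1r-cre replicate 6 is as bright as its group at Gm14292 and Atp6v0c-ps2 and as dark as the controls at the copies after them; control replicates 6 and 7 are bright at the last copies.

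The 15 genes next in order of p, none of them called, held further genes of chromosome 17. Gm11361, a copy of the ribosomal protein gene Rps18 on chromosome 13, was 14.9 ± 6.52 TPM against 5.13 ± 3.63 TPM (log2 fold change 1.47 ± 0.33, SE, limma adjusted p = 0.0919), with an adjusted p of 0.000189 without Csf1r-cre replicate 6. Gtpbp2, a GTP-binding protein gene on chromosome 17 that helps to rescue stalled ribosomes, was 17.9 ± 5.05 TPM against 30.4 ± 9.01 TPM (-0.73 ± 0.18). Its limma adjusted p was 0.285, and 0.0392 without the same library. AC154457.3 was 2.97 ± 1.88 TPM against 0.575 ± 1.06 TPM (1.81 ± 0.45), with a limma adjusted p of 0.311, and 0.00329 without that library.

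Spsb3, a SOCS box protein gene on chromosome 17, was 4.95 to 8.75 TPM with Csf1r-cre and 8.77 to 14.3 TPM without. Its groups did not overlap, yet its log2 fold change of -0.61 ± 0.16 did not pass (limma adjusted p = 0.414). Gm26917, Rnps1, H2-T23, Rsph3b and H2-T10 are also on that chromosome. Away from it, Tph2, the brain enzyme of serotonin synthesis, was 0.731 ± 0.258 TPM against 1.71 ± 0.598 TPM and Glp2r, a gut peptide receptor gene, 0.149 ± 0.106 TPM against 1.26 ± 1.44 TPM. Ing2, a chromatin reader, was 12.8 ± 1.89 TPM against 18.3 ± 2.89 TPM, and the anchoring protein gene Akap7 was 27.0 ± 6.00 TPM against 38.6 ± 7.73 TPM. Gm25395 and Gm15542 completed the 15, and limma's adjusted p was at least 0.285 for the 14 after Gm11361.

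Gene lists were read against a general shift. The median log2 fold change of all genes was -0.12 and 74.5% of genes lay below 0, while with median-of-ratios size factors the median was 0.015. A list median near -0.12 is therefore the background, and each median below is followed by its value with those size factors. Atp6v0c was the only called member of any list. Only the vacuolar ATPase, class I, thalamus and immediate early lists had members at an unadjusted p under 0.05; in every other list limma called 0 and the count at that p was 0.

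Homeostatic microglia genes stayed near the background. All 18 were measured and 17 lay below 0, with a median of -0.16 (-0.011 with size factors). P2ry12, a purine receptor that guides microglial processes, was 25.2 ± 6.29 TPM (SD) in the 6 Csf1r-cre samples and 28.3 ± 4.57 TPM (SD) in the 8 controls. Tmem119, a membrane protein specific to microglia in brain, was 31.4 ± 7.28 TPM against 35.0 ± 4.21 TPM. Cx3cr1, the fractalkine receptor, was 14.4 ± 4.25 TPM against 17.1 ± 4.39 TPM. P2ry13, a further purine receptor with the smallest p of the list, was 6.43 ± 1.59 TPM against 8.29 ± 1.21 TPM (log2 fold change -0.37 ± 0.20, limma adjusted p = 0.995). Csf1r-cre replicate 5 was the lowest of the 14 libraries for each of these 4 genes. Summed over the list, the controls held 634 to 847 TPM and the Csf1r-cre samples 526 to 776 TPM, which overlap.

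Genes of the microglial state seen around plaques were not separated either, with a median of -0.060 (0.089 with size factors) over 35 genes. Trem2, the lipid receptor of that state, was 17.6 ± 2.77 TPM against 16.8 ± 2.51 TPM (log2 fold change 0.069 ± 0.23), and its adaptor Tyrobp was 46.3 ± 9.87 TPM against 45.5 ± 5.21 TPM. Cst7, a cystatin, was 0.298 to 1.83 TPM with Csf1r-cre and 0 to 0.956 TPM without. Itgax, an integrin subunit gene, stood at 0.532 ± 0.223 TPM against 0.280 ± 0.200 TPM, and the pattern receptor Clec7a was 0.548 ± 0.565 TPM against 0.581 ± 0.435 TPM. The chemokine Ccl6 was 4.86 ± 1.94 TPM against 4.96 ± 1.27 TPM and the lipase Lpl 7.06 ± 4.48 TPM against 7.39 ± 3.85 TPM. The first 3 of these last 5 genes were at most 1.83 TPM in every library, where only a large change is detectable.

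Ligands and regulators of the CSF1 receptor had a median of -0.072 (0.062 with size factors) over 16 genes. Il34, its neuronal ligand, was 63.4 ± 9.39 TPM against 63.3 ± 9.25 TPM, and Csf1, the other ligand, 9.14 ± 4.07 TPM against 10.5 ± 3.09 TPM. Spi1, which encodes the myeloid factor PU.1, was 8.83 ± 2.91 TPM against 8.87 ± 1.74 TPM. Border macrophages, which Csf1r-cre also reaches, had a median of -0.40 (-0.29 with size factors), with 8 of 10 genes below 0. Mrc1, the mannose receptor, was 0.138 to 0.997 TPM with Csf1r-cre and 0.220 to 3.00 TPM without. The list summed to 9.09 to 17.7 TPM against 5.70 to 40.3 TPM. Monocyte and neutrophil genes had a median of -0.079 (-0.059 with size factors) and T cell genes of 0.0093 (0.15 with size factors).

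Receptors of apolipoprotein E and genes of lipid transport had a median of -0.17 (-0.014 with size factors), with 22 of 23 below 0. Clu, which encodes clusterin, another abundant apolipoprotein of brain, was 1189 ± 338 TPM against 1488 ± 411 TPM (log2 fold change -0.31 ± 0.30). Abca1, which loads lipid onto apolipoprotein E, was 5.15 ± 4.38 TPM against 5.74 ± 3.17 TPM. The receptor Lrp1 was 124 ± 63.8 TPM against 138 ± 45.9 TPM. Cholesterol synthesis had a median of -0.15 (-0.018 with size factors) over 20 genes, 19 of them below 0.

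Lysosome genes had a median of -0.19 (-0.030 with size factors), with all 27 below 0. Psap, the precursor of the saposins, was 938 ± 192 TPM against 1214 ± 226 TPM (log2 fold change -0.37 ± 0.24). Of the 17 genes of the vacuolar ATPase, 1 was called, Atp6v0c, and the median was -0.18 (-0.019 with size factors). The accessory subunit Atp6ap2, the other member at an unadjusted p under 0.05, was 257 ± 20.0 TPM against 310.5 ± 47.2 TPM (-0.26 ± 0.12, limma adjusted p = 0.995).

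Interferon response genes had a median of 0.12 (0.25 with size factors), with 18 of 26 above 0. Usp18, which damps interferon signalling, was 0.694 to 3.11 TPM in the controls, at most 2.92 TPM in Csf1r-cre replicates 1 to 5 and 14.4 TPM in replicate 6. Class II antigen presentation had the lowest median of all lists, -0.64 (-0.49 with size factors), with all 6 measured genes below 0. H2-Aa, a chain of the class II molecule, was 2.82 ± 1.81 TPM against 8.28 ± 7.96 TPM (log2 fold change -1.12 ± 0.58, limma adjusted p = 0.995). Cd74, its invariant chain, was 4.07 ± 1.48 TPM against 8.28 ± 7.24 TPM. Control replicates 7 and 8 held 12.1 and 26.1 TPM of H2-Aa, and no other library more than 8.11 TPM. The class II list summed to 27.1 to 42.8 TPM with Csf1r-cre and 26.5 to 118 TPM without. Border macrophage markers were also highest in control replicate 8, at 40.3 TPM in sum, and their part in the class II values was not tested.

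Class I genes had a median of -0.13 (0.0097 with size factors), with 2 of 14 lower at an unadjusted p under 0.05. H2-T23, a nonclassical class I gene, was 5.5 to 17.7 TPM with Csf1r-cre and 6.58 to 47.4 TPM without (log2 fold change -0.99 ± 0.31, limma adjusted p = 0.995). H2-T22, another of that kind, was 11.8 ± 3.76 TPM against 16.2 ± 6.35 TPM. In both genes Csf1r-cre replicate 6 was the highest of its group and control replicates 6 and 7 the lowest of theirs. H2-D1, a classical class I gene, was 183 ± 34.3 TPM against 141 ± 34.7 TPM. Class I genes share long near-identical stretches, so these values are uncertain. Complement genes had a median of -0.10 (-0.0041 with size factors), and C1qa, made by microglia, was 141 ± 30.6 TPM against 142 ± 18.8 TPM.

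**Figure D4:**
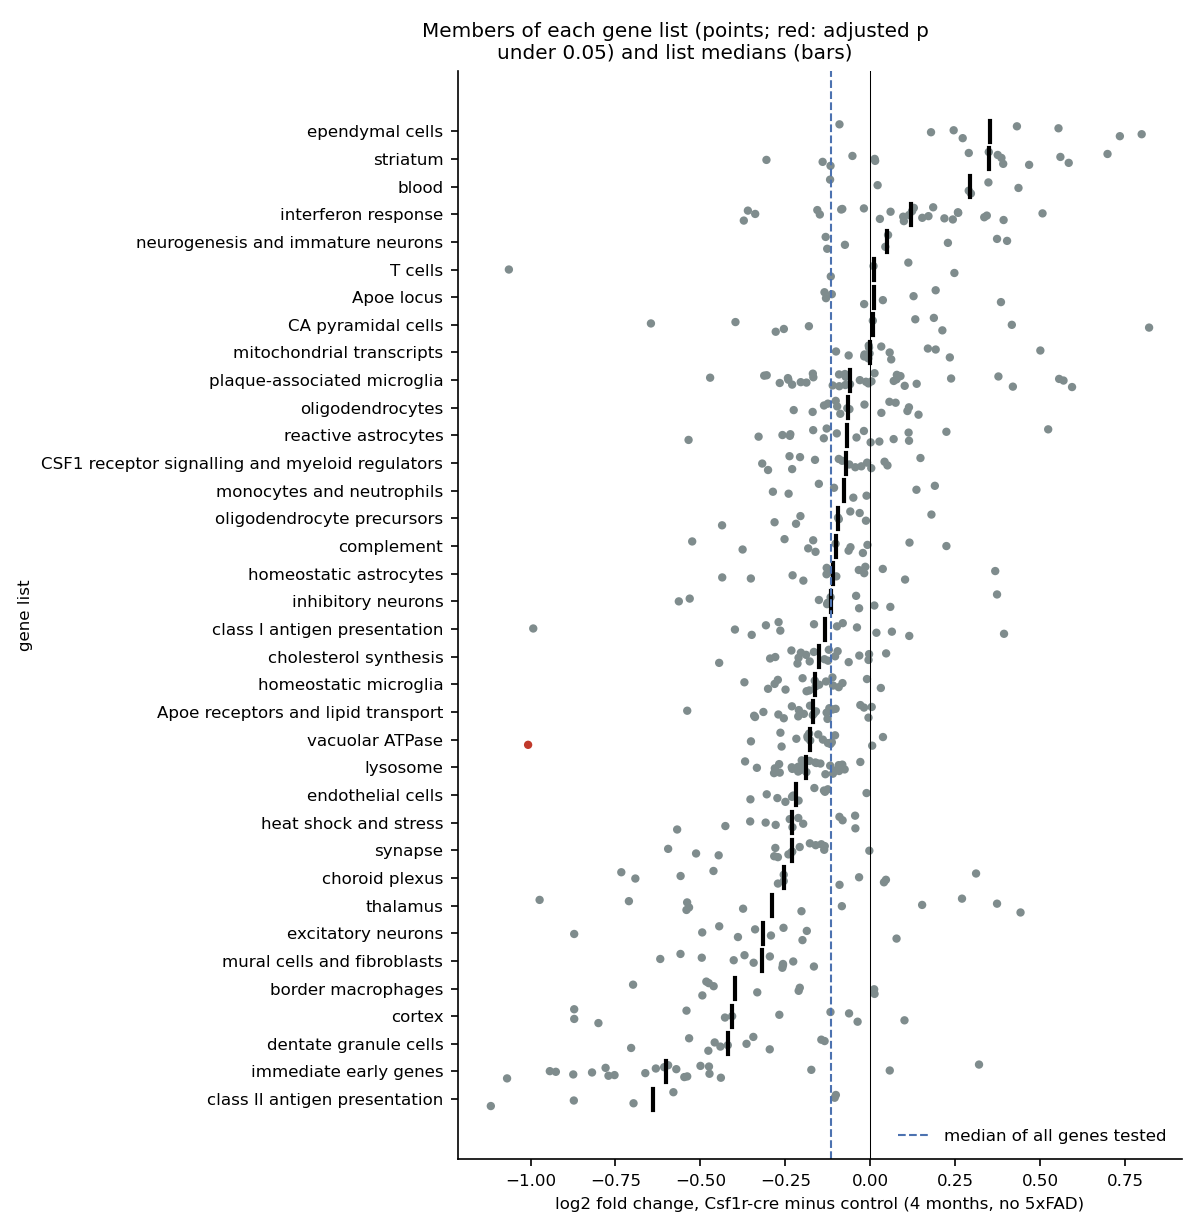
Log2 fold change, Csf1r-cre minus control, of each measured member of 36 gene lists (points) with list medians (bars); the dashed line is the median of all genes tested, at -0.12, and red marks an adjusted p under 0.05. Medians run from -0.64 for class II antigen presentation to 0.35 for ependymal cells, and Atp6v0c is the red point.

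Astrocyte genes, from the main source of Apoe, had medians of -0.11 (0.047 with size factors) for 14 homeostatic and -0.070 (0.058 with size factors) for 18 reactive genes. Gfap, the astrocyte filament, was 212 ± 72.5 TPM against 218 ± 84.5 TPM, and the glutamate transporter gene Slc1a3 291 ± 207 TPM against 365 ± 162 TPM. Oligodendrocyte genes had a median of -0.065 (0.092 with size factors), with the myelin gene Mbp at 3072 ± 448 TPM against 2806 ± 552 TPM, and their precursors one of -0.094 (0.047 with size factors). Endothelial genes had a median of -0.22 (-0.075 with size factors) and mural cell and fibroblast genes of -0.32 (-0.18 with size factors), with all 12 below 0 in each. Ependymal genes had a median of 0.35 (0.50 with size factors) and blood genes of 0.29 (0.45 with size factors). Of the genes in these lists 0 were called.

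Immediate early genes, which neurons switch on with activity, had a median of -0.60 (-0.45 with size factors), with 20 of 22 below 0 and 2 lower at an unadjusted p under 0.05. Those were the early response gene Ier5, at 19.8 ± 5.71 TPM against 31.7 ± 11.5 TPM (log2 fold change -0.63 ± 0.23), and the MAP kinase phosphatase gene Dusp6, at 23.7 ± 8.91 TPM against 34.8 ± 8.28 TPM (-0.61 ± 0.23), both with a limma adjusted p of 0.995. The transcription factor gene Fos ran from 2.68 to 105 TPM with Csf1r-cre and from 11 to 68.8 TPM without. Arc, a synaptic plasticity gene, ran from 4.01 to 99.5 TPM and from 10.3 to 94.0 TPM. Csf1r-cre replicate 4 was the highest of the 14 libraries for both genes. The list summed to 213 to 1184 TPM against 352 to 1271 TPM.

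Other neuronal lists lay nearer the background. Synapse genes had a median of -0.23 (-0.073 with size factors), excitatory neuron genes of -0.32 (-0.16 with size factors) and inhibitory neuron genes of -0.12 (0.041 with size factors). Nrgn, a calmodulin-binding protein gene of excitatory neurons, was 1592 ± 532 TPM against 2220.1 ± 650.3 TPM (log2 fold change -0.49 ± 0.26). Genes of neurogenesis had a median of 0.048 (0.18 with size factors), mitochondrial transcripts of -0.0023 (0.16 with size factors) and heat shock genes of -0.23 (-0.071 with size factors).

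Markers of hippocampal fields and of neighbouring tissue varied widely between libraries of one group, and their part in the neuronal values was not tested. Dentate granule cell genes had a median of -0.42 (-0.26 with size factors), all 11 below 0, and CA pyramidal cell genes of 0.0073 (0.15 with size factors), with the CA1 marker Wfs1 at 41.2 ± 15.8 TPM against 50.9 ± 21.7 TPM. Prox1, the granule cell factor, was 4.31 to 9.45 TPM with Csf1r-cre and 1.76 to 18.8 TPM without. Cortex genes had a median of -0.41 (-0.25 with size factors), and the cortical factor Tbr1 was 10.7 to 54.5 TPM against 14.2 to 161 TPM. Control replicate 1 was the lowest of the 14 libraries for Prox1 and the highest for Tbr1. Striatum genes had a median of 0.35 (0.50 with size factors), and the dopamine receptor gene Drd2 was 1.64 to 70.4 TPM against 0.214 to 59.3 TPM. Thalamus genes had a median of -0.29 (-0.15 with size factors), and Ramp3, the member at an unadjusted p under 0.05, was 36.8 ± 24.9 TPM against 67.2 ± 30.4 TPM (log2 fold change -0.97 ± 0.47). Choroid plexus genes had a median of -0.25 (-0.11 with size factors), with Ttr, the thyroxine carrier, at 45 to 1471 TPM against 1.29 to 4573 TPM. Summed, the striatum list ran from 193 to 4323 TPM against 219 to 3813 TPM, and the cortex list from 96.0 to 272 TPM against 108 to 521 TPM.

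Most called genes also passed at the other age and with amyloid, in comparisons that share no library with the one above. Csf1r-cre against none called 13 genes at 12 months without 5xFAD (0.0697%), 11 at 4 months with 5xFAD (0.059%) and 11 at 12 months with 5xFAD (0.059%). At an unadjusted p under 0.05 the shares of all genes were 10.1%, 1.44% and 3.3%. All those groups carried Apoe(fl/fl) as well; the strain entry of the 12-month 5xFAD samples names Csf1r-cre where their titles do not, and the titles were followed. In that order, Atp6v0c had log2 fold changes of -1.08 ± 0.16, -0.97 ± 0.16 and -1.02 ± 0.14 (SE). Atp6v0c-ps2 had 5.04 ± 0.28, 4.78 ± 0.28 and 4.56 ± 0.24. Rps2-ps10 had 7.19 ± 0.77, 7.51 ± 0.75 and 6.95 ± 0.65. Gm14292, Gm9825, Hmga1b and Rps2-ps13 passed in all 3 comparisons too. Prss41 and Rnf151 passed at 12 months with 5xFAD (limma adjusted p = 0.00332 and 0.0335) and not in the other two.

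The difference in the Csf1r-cre effect was tested directly. Between 4 and 12 months without 5xFAD limma called 0 genes, with 760 at an unadjusted p under 0.05 (4.07%). Between mice without and with 5xFAD at 4 months it called 0, with 393 at that p (2.11%). For Apoe the 2 differences were -0.016 ± 0.31 and -0.065 ± 0.31 (SE) on the log2 scale, and for Csf1r 0.29 ± 0.48 and -0.41 ± 0.47. For Gm9825 they were -0.71 ± 0.62 and -1.25 ± 0.60, and for Rps2-ps13 -0.91 ± 0.44 and -1.37 ± 0.43. Neither gene passed in either test (limma adjusted p at least 0.989). Both differences include 4-month Csf1r-cre replicate 6, which lay within the control range of these genes, at 0.274 and 0.262 TPM. The age difference became 3 genes without 12-month control replicate 1 and 4 without replicate 3, in a group of 3 samples.

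**Figure D5:**
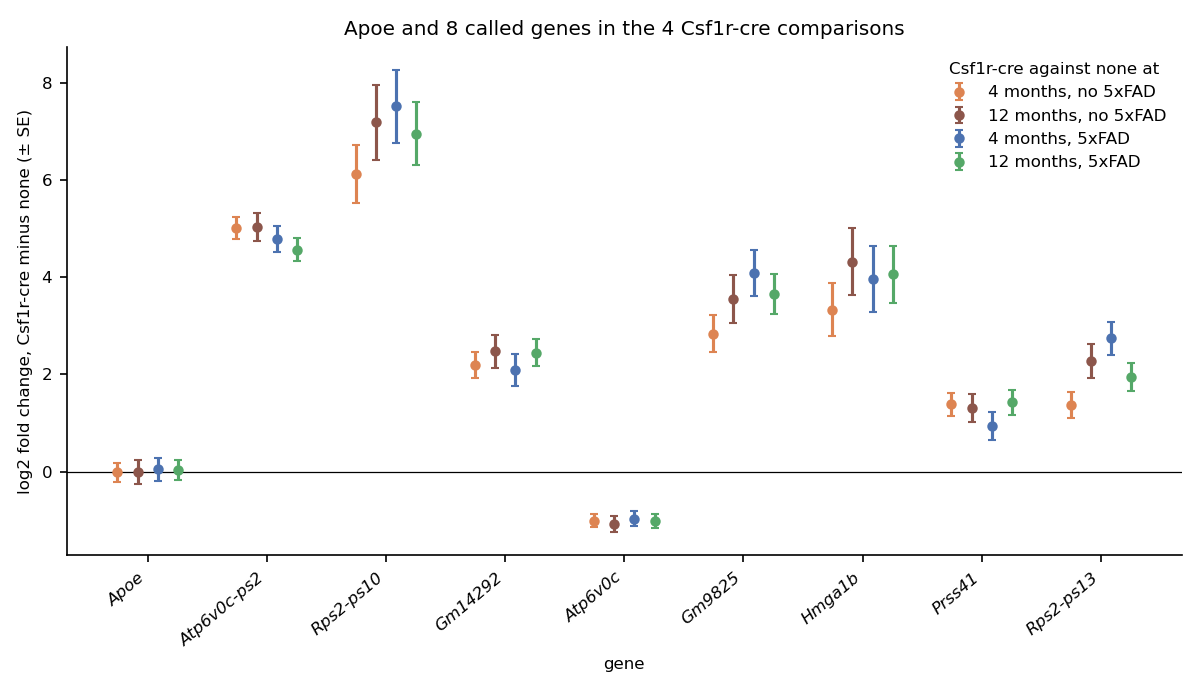
Log2 fold change ± SE of Csf1r-cre against none for Apoe and 8 called genes at 4 and 12 months, without and with 5xFAD; Rnf151 is left out because it is listed at 0 in all 8 controls at 4 months. Apoe lies near 0 and Atp6v0c below 0 in all 4 comparisons, and the other 7 genes lie above 0.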

How the data were processed

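Per the submitters' processing notes, reads were processed with STAR, featureCounts, edgeR and limma on mm10; the sources used here give no versions, strand setting or handling of multiply mapped reads. The authors deposited TPM for 54532 genes in 45 samples. Genes with at least 0.5 TPM in 3 samples were kept, and log2(TPM + 0.5) was fitted in limma 3.58.1 (R 4.3.3) with 8 group means over all 45 samples and Benjamini-Hochberg adjustment over 18659 genes. Only 31.3% of 22910 genes gave whole reads at the listed lengths within 0.02, so counts were not recovered and no count test was run. Copies were matched with BLAST 2.17.0 to GENCODE M21. Samples were grouped by title. Same-numbered samples of both groups deviated together (correlations 0.135 to 0.350 over 6 pairs), so the replicate number was also fitted as a block. Among controls 1 to 6, the best match had the same number for Csf1r-cre replicates 1, 3 and 6. For replicates 2, 4 and 5 it was control 4, 2 and 6, so a pairing by number is not established. The text names Apoe, Csf1r, the called genes, the 15 next by p with a mean of at least 1 TPM, up to 4 members of each list by p, other list members beside their list, and matched genes. Members and lists were chosen with earlier results of these data known. Alternatives changed the pseudocount, filter, scaling, samples fitted, sample weights and each replicate. The fit was tested on simulated data. Single values of some list members are not reported here.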

Additional observations from a re-analysis of the deposited data

Results flagged for a closer look

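Samples that stood far from the rest of their group were looked for in 145 pairs of a named gene and a group, and 18 pairs (12.4%) had one. Chance marks about 1 in 20 groups that were not chosen by their values; most of these genes were named for their p or their match in the same samples and several move together, so the share is a description only. Csf1r-cre replicate 6 accounted for 8. It was the lowest of its group for Rps2-ps10 (1.76 TPM, next 251 TPM), Gm9825 (0.274 TPM, next 7.86 TPM), Hmga1b (0.442 TPM, next 20.1 TPM), Gm11361 (2.8 TPM, next 14.3 TPM), H2-T10 (0.176 TPM, next 2.26 TPM) and AC154457.3 (0 TPM, next 2.06 TPM). It was the highest of its group for Usp18 (14.4 TPM, next 2.92 TPM) and H2-T22 (19.1 TPM, next 11.6 TPM).

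Control replicate 6 stood apart for 4 genes. It was the highest control for Hmga1b (15 TPM, next 0.63 TPM) and Gm25395 (1.64 TPM, next 0.28 TPM) and the lowest for Tomm40 (39.9 TPM, next 59.4 TPM) and Psap (722 TPM, next 1080 TPM). Gm23935 took 28.8% of all TPM in this library, the most of the 14, and its part in the low values was not tested. Control replicate 1 was the highest control for Atp6v0c-ps2 (22.4 TPM, next 14.2 TPM) and Glp2r (4.73 TPM, next 1.21 TPM). Control replicate 7 was the highest for Prss41 (0.639 TPM, next 0.156 TPM) and control replicate 8 the lowest for Ramp3 (15.2 TPM, next 53.4 TPM). Csf1r-cre replicate 4 was the highest of its group for Tph2 (1.24 TPM, next 0.755 TPM) and Csf1 (17.2 TPM, next 9.28 TPM).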

How the results depend on the processing

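The count of 9 called genes was 4 with only the 2 groups fitted and 14 with sample weights, and ranged from 7 to 13 when 1 replicate was left out (13 without Csf1r-cre replicate 6). With the replicate number as a block over all 45 samples, it was 7: Rps2-ps13 and Rnf151 were lost and no other call changed. The titles give that number only as a running number, so the block is not a known pairing. With only the 2 groups fitted, Hmga1b (limma adjusted p = 0.925), Gm9825 (0.420), Prss41 (0.0610), Rps2-ps13 (0.516) and Rnf151 (0.529) no longer passed. That fit has fewer samples and takes its spread from those 2 groups alone, Csf1r-cre replicate 6 among them. Why these calls were lost was not tested. Rps2-ps13 was lost in 10 of 25 alternatives and Rnf151 in 10 of 24. Atp6v0c, Atp6v0c-ps2, Rps2-ps10 and Gm14292 passed in all 25 alternatives run for each. The Apoe difference changed sign to 0.14 with size factors and to 0.0754 without Gm23935, and ran from -0.171 to 0.0661 when 1 replicate was left out; the cause was not tested. The age difference of 0 genes was 1 with sample weights and ranged from 0 to 4 when 1 replicate was left out. The difference by 5xFAD stayed at 0 when any 1 replicate was left out. Precision is limited for genes near 1 TPM.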
